A study of Mus musculus with 4 samples.

Results

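The 35 genes described here act in DNA replication and in the passage from G1 into S phase of the cell cycle. They were chosen by symbol, and all 35 were found among the 32285 genes of both count matrices. All 35 also passed the filter on low counts in every comparison below. Before S phase, the proteins Cdc6 and Cdt1 load a ring of the subunits Mcm2 to Mcm7 onto DNA, where it waits as an inactive helicase. Cyclin E and the E2F transcription factors then switch on the start of replication, and Cdc45, Mcm10 and the GINS proteins turn the loaded ring into a moving helicase. Adult haematopoietic stem cells (HSCs) are known to divide rarely, whereas the progenitors that descend from them divide often.

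Bone marrow was taken from 2 male mice with Tppp3CreER, a Cre recombinase driven by Tppp3 and switched on by tamoxifen, and LSLTdTomato, a red reporter that Cre turns on. Tamoxifen was given at postnatal days 0 and 3, and the animals were 3 months old when LSK cells (negative for lineage antigens, positive for Sca-1 and Kit) were sorted from marrow enriched for Kit. The cells of each mouse were sorted by tdTomato into a positive and a negative tube, marked with hashtag antibodies, and the cells of each tube were divided between 2 droplet chemistries of 10x Genomics, GEM-X and v3.1. The reporter marks cells with Cre activity around tamoxifen and their descendants. No mouse without Cre or without tamoxifen was analysed here, so the negative tubes are the only control and come from the same animals.

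The files held 234563105 UMIs (unique molecular identifiers, counts of distinct captured RNA molecules) in the GEM-X and 178214937 in the v3.1 expression library. No cell barcode was shared by the 32330 cells used. Depth per cell had medians of 6650 to 10028 UMIs over the 8 combinations of tube and chemistry. As a check of the sort, Kit was at 293 to 366 CPM (UMI counts scaled to a common library total) and Ly6a, which encodes Sca-1, at 57.0 to 65.6 CPM in the 4 tubes. Of genes for lineage antigens, Cd3e and Ly6g stayed at or under 0.0986 CPM, while Itgam was at 22.3 to 24.1 CPM. Each chemistry was 1 library, so chemistry and library cannot be told apart.

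Promoters of 29 of the 35 genes were found in RefSeq (GRCm38.p6), 33 promoters in all, each running from 250 bases before the transcription start to 50 after it. The letters TTTCCCGC, TTTCGCGC, TTTGCCGC and TTTGGCGC, forms of the site that E2F factors bind, were searched on both strands with overlaps counted. At least 1 of them was in 12 of the 33 promoters (36.4%), compared with 2.26% of all 32851 promoters of the same length. CCAAT was in 60.6% of the 33 promoters and in 37.4% of all promoters, and the letters TTTGAA or TTCGAA, found at many genes of G2 and mitosis, were in 9.09% and 19.2%. These 3 motifs are all that were searched. To show how such letters lie, 4 promoters with a match and that of Chaf1b, a gene that stands apart in the results below, follow; they were picked after the matches were seen. Each line gives the 200 bases just before the start, 5′ to 3′ on the strand of the gene, with E2F-type letters in capitals.
Mcm5 (chr8:75109309-75109508, plus strand): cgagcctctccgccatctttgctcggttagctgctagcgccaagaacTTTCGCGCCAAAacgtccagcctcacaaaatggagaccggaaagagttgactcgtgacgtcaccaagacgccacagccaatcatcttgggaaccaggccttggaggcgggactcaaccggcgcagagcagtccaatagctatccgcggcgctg
Mcm6 (chr1:128359706-128359905, minus strand): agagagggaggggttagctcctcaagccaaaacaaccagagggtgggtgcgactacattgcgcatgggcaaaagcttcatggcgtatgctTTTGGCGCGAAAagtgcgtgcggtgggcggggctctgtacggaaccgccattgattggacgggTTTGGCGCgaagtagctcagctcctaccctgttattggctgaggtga
Dtl (chr1:191575545-191575744, minus strand): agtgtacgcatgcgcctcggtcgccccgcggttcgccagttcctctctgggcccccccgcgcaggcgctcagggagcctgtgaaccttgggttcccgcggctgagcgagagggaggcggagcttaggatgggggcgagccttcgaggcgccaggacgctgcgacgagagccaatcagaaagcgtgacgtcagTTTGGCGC
Pola1 (chrX:93632156-93632355, minus strand): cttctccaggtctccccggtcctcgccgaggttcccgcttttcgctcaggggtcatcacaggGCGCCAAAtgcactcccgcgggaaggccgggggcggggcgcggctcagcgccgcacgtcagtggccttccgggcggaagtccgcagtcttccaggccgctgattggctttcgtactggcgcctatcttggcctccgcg
Chaf1b (chr16:93883701-93883900, plus strand): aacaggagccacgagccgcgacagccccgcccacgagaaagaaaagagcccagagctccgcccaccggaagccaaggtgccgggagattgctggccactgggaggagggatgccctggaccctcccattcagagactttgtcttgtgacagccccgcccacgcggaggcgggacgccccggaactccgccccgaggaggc
The Mcm5 and Mcm6 promoters each hold a pair of matches on opposite strands that overlap by 4 letters, and Mcm6 has a further match nearer the start. A match is a description of the letters and not evidence of binding.

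To compare cells of different depth, each was thinned to 4000 UMIs, which left out 1784 shallower cells (5.52%) and kept 30546. The number of UMIs of the 35 genes per cell had its peak at 2 and a long second shoulder that reached 55. A cell was called replication-high when it had at least 10 such UMIs. This marks a range and not a type of cell, and 2914 cells (9.54%) lay close to the limit, with 8 to 11 UMIs. Replication-high cells made up 37.0% ± 2.93 of all cells (SD over 4 tubes from 2 mice).

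**Figure D1:**
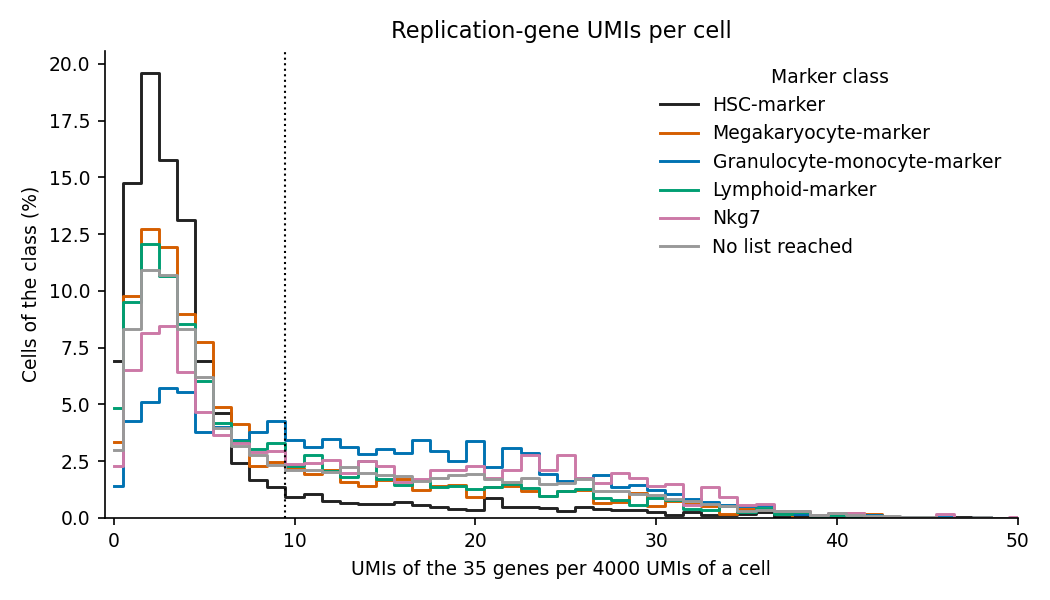
Share of the cells of each marker class (vertical axis, percent) by the number of UMIs of the 35 genes per 4000 UMIs of a cell (horizontal axis); the dotted line marks the limit of 10 UMIs. Every class had its most frequent value at 2 or 3 UMIs, and the classes differed in how many cells lay to the right of the line.

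Cells were put into classes by the summed UMIs of marker lists that contain none of the 35 genes. A cell that reached exactly 1 of 10 lists took its class, and the UMI minimum of a list was set so that at most 20% of cells reached it. The HSC-marker class held 3668 cells with at least 10 UMIs of its list, led by Mecom, Hlf and Mllt3. The megakaryocyte-marker class (1855 cells, at least 3 UMIs) was led by Plek, Pf4 and Cd9, and its cells still had a median of 5 UMIs of the HSC list. The granulocyte-monocyte-marker class (2610 cells, at least 5 UMIs) was led by Mpo, Prtn3 and Ctsg, and the lymphoid-marker class (2738 cells, at least 7 UMIs) by Flt3, Satb1 and Dntt. A list of T and NK cell genes gave 1764 cells, but Nkg7 alone made up 88.7% of its UMIs, so these cells are called the Nkg7 class here. The classes are ranges of a score: 624 HSC-marker cells had exactly the minimum of 10 UMIs, as did 1033 megakaryocyte-marker cells at 3 and 1199 cells of the Nkg7 class at 2. No list was reached by 10397 cells, and 6322 reached several and were left out of the class comparisons. Median depth was 6926 UMIs per cell in the HSC-marker class, 8434 in the megakaryocyte-marker, 9378 in the lymphoid-marker, 9712.5 in the Nkg7 and 13180 in the granulocyte-monocyte-marker class. Its part in the differences below was not tested beyond the thinning.

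Of the 6 classes compared, replication-high cells were rarest in the HSC-marker class and most frequent in the granulocyte-monocyte-marker class at the limit of 10 UMIs. With a limit of 20 UMIs the Nkg7 class had the highest share (29.36%, against 27.51% in the granulocyte-monocyte-marker class), and the HSC-marker class the lowest (6.20%). In the HSC-marker class they made up 13.8% of the cells of the tdTomato-positive and 16.6% of the tdTomato-negative tube of mouse 1, and 10.4% and 10.6% in mouse 2, a mean of 12.9% ± 2.95 (SD, n = 4 tubes). The share was 32.9% ± 3.01 in the megakaryocyte-marker, 33.8% ± 2.15 in the lymphoid-marker, 50.03% ± 1.95 in the Nkg7 and 57.3% ± 4.14 in the granulocyte-monocyte-marker class, and 40.8% ± 2.60 in cells that reached no list. No tube of the other classes compared came down to the range of the HSC-marker tubes, while the ranges of the megakaryocyte-marker and lymphoid-marker tubes overlapped. Classes with under 50 cells in a tube were not part of this comparison. The 4 tubes come from 2 animals and every class draws on the same tubes, so shares are given without a test. Between the gates, with 2 against 2 values, no exact permutation test can pass 0.05. Without thinning, with a limit of 0.25% of the UMIs of a cell, the shares were 13.1% in the HSC-marker and 55.1% in the granulocyte-monocyte-marker class. An erythroid-marker class of 449 cells had 62.4% replication-high cells over all tubes (exact binomial 95% interval 57.7 to 66.9%, counting error only), but with 44 cells in its smallest tube it was not tested.

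**Figure D2:**
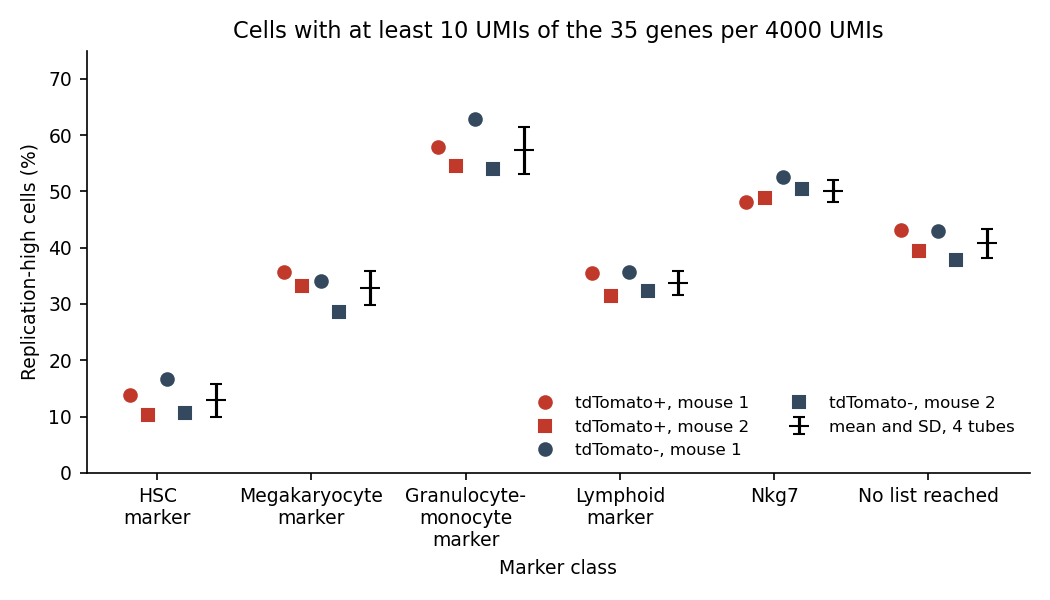
Share of replication-high cells (vertical axis, percent) in each marker class; points are the 4 tubes, coloured by gate and shaped by mouse, and bars are the mean and SD of the 4 tubes. The HSC-marker tubes lie at 10.4 to 16.6%, below every tube of the other classes shown, and the granulocyte-monocyte-marker tubes lie at 54.0 to 63.0%.

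In the HSC-marker class the mice differed more than the gates did. Divided by chemistry as well, the shares in mouse 1 ran from 12.7 to 16.6% and those in mouse 2 from 7.77 to 12.3%, so the mice did not overlap, while both gates held high and low values. The number of animals is 2, and this difference was not tested. Among all thinned cells, the share fell step by step with the number of HSC-list UMIs: 52.2% ± 1.32 at 0 or 1, 45.4% ± 1.56 at 2 to 4, 33.2% ± 2.45 at 5 to 9, 15.4% ± 2.14 at 10 to 14, 7.18% ± 2.89 at 15 to 19 and 4.77% ± 2.29 at 20 or more (mean ± SD, 4 tubes). These bins were set after the data were seen. UMIs of a thinned cell share a fixed total, so a cell with more of one kind has room for slightly fewer of another.

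The classes differed in how many cells were replication-high more than in how many replication UMIs such a cell had. Replication-high cells had a mean of 20.4 ± 1.17 UMIs of the 35 genes in the HSC-marker class and 19.9 ± 0.608 in the granulocyte-monocyte-marker class (SD, 4 tubes). The cells below the limit had 2.95 ± 0.0803 and 4.57 ± 0.198. The limit itself uses these UMIs, so the values are a description. They are also fractions of a fixed total and not counts of whole cells. Median depth before thinning was 6926 UMIs in the HSC-marker and 13180 in the granulocyte-monocyte-marker class. With a list of 26 G2/M genes (for the phase between replication and division, and division itself) and the same limit of 10 UMIs, 84.9% of HSC-marker cells were high in neither list, 9.11% in the replication genes alone, 3.76% in both and 2.26% in G2/M genes alone. In the granulocyte-monocyte-marker class the shares were 27.9% in neither, 33.7% in the replication genes alone, 25.0% in both and 13.4% in G2/M genes alone.

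Gene by gene, UMIs were summed per tube and class, and each class was compared with the HSC-marker class by edgeR's quasi-likelihood test with Benjamini-Hochberg adjustment over 13421 genes (adjusted p under 0.05). All 35 genes were higher in the megakaryocyte-marker class, where 24.7% of all genes tested were higher, and none was lower, where 19.2% were. The same count was 34 of 35 in the granulocyte-monocyte-marker class (36.2% of all genes), 34 in the lymphoid-marker class (33.2%), 35 in the Nkg7 class (29.1%) and 35 in cells that reached no list (29.4%). In the lymphoid-marker class 1 gene was lower, against 25.8% of all genes. The median log2 fold change over the 35 genes was 0.83 in the megakaryocyte-marker, 1.49 in the granulocyte-monocyte-marker, 0.98 in the lymphoid-marker and 1.43 in the Nkg7 class and 1.14 in cells of no list. Over all genes tested the medians were between -0.03 and 0.03. In these sums more cycling cells and more RNA per cycling cell cannot be told apart. The tubes share 2 animals, and p-values rest on the spread between tubes. With sums per mouse the counts of higher and lower genes were the same as those above.

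**Figure D3:**
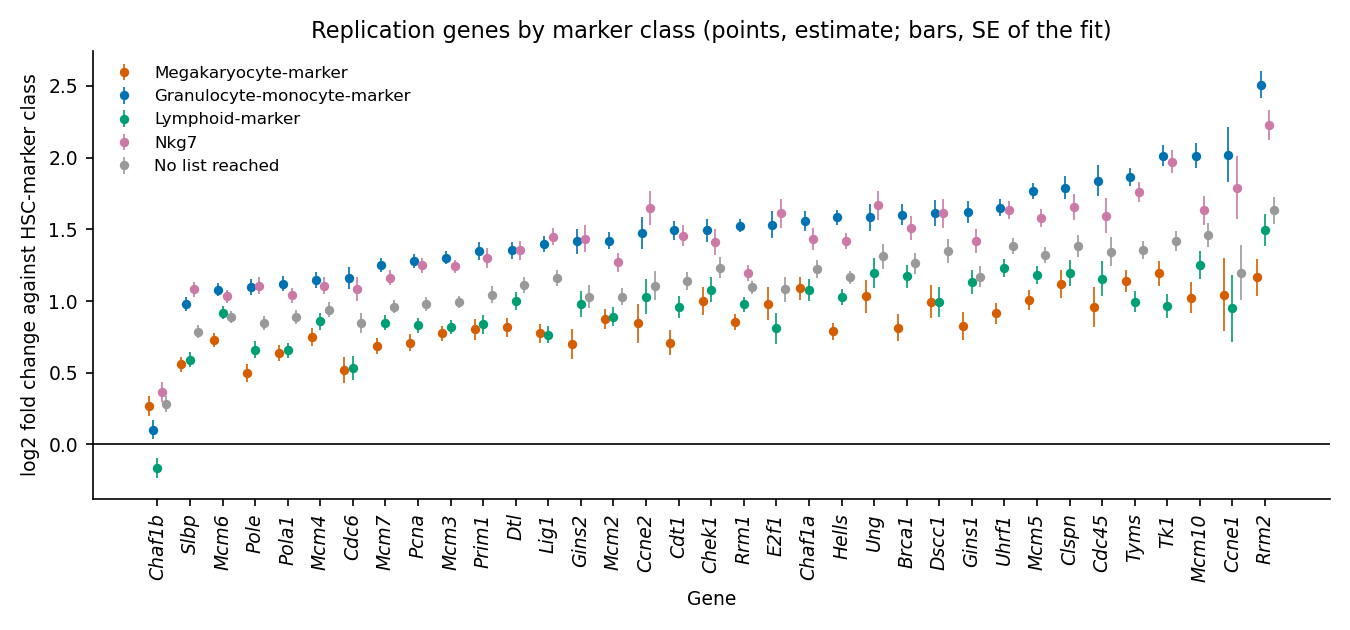
log2 fold change of each of the 35 genes against the HSC-marker class (vertical axis), with bars for the SE of the fit and a colour for each of the 5 other classes; genes are ordered by their value in the granulocyte-monocyte-marker class. Chaf1b has the lowest value in every class, from -0.17 to 0.36, and Rrm2 has the highest value in all classes but the megakaryocyte-marker class, where Tk1 is slightly higher (1.19 against 1.17).

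The 6 subunits of the helicase ring, Mcm2 to Mcm7, were higher in all 5 classes. Mcm5 was at 30.3, 39.5, 29.3 and 30.4 CPM in the HSC-marker class (positive and negative tube of mouse 1, then of mouse 2) and at 112, 126, 111 and 104 CPM in the granulocyte-monocyte-marker class. Every granulocyte-monocyte-marker tube was above every HSC-marker tube, and the log2 fold change was 1.77 ± 0.057 (SE of the fit, 4 tubes; adjusted p = 2.8e-28 by edgeR's quasi-likelihood test). Mcm6 rose least of the 6 in that class, from 117, 127, 118 and 117 CPM to 264, 271, 244 and 239 CPM, by 1.08 ± 0.044 on the log2 scale (edgeR, adjusted p = 9.9e-25). The median of the 6 subunits was 0.76 in the megakaryocyte-marker, 0.87 in the lymphoid-marker and 1.28 in the granulocyte-monocyte-marker class.

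The factors that load and start the ring moved with it. Cdc6, a loader, was at 22.5, 21.0, 22.6 and 22.0 CPM in the HSC-marker class and at 47.5, 51.9, 49.0 and 45.9 CPM in the granulocyte-monocyte-marker class, with no overlap. Its increase was smaller in the megakaryocyte-marker class (log2 fold change 0.52 ± 0.092) and in the lymphoid-marker class (0.54 ± 0.084), both past edgeR's test, but neither passed with v3.1 counts alone (0.32 and 0.26). Mcm10, which helps to switch the helicase on, was at 13.3, 15.5, 12.8 and 9.9 CPM in the HSC-marker class and at 50.6, 55.5, 49.7 and 47.9 CPM in the granulocyte-monocyte-marker class. It rose by 2.01 ± 0.085 on the log2 scale (edgeR, adjusted p = 2.7e-24). Cdc45, which joins the moving helicase, went from 8.2, 13.2, 7.8 and 9.6 CPM to 37.7, 39.2, 28.7 and 39.6 CPM between the same classes.

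Cdt1, the partner of Cdc6 in loading, was at 20.8, 23.2, 21.2 and 18.8 CPM in the HSC-marker class and at 61.0, 60.8, 57.7 and 55.9 CPM in the granulocyte-monocyte-marker class. The increase was 1.49 ± 0.069 there and 0.71 ± 0.086 in the megakaryocyte-marker class, on the log2 scale. Of the GINS proteins, Gins1 rose by 1.62 ± 0.076 and Gins2 by 1.42 ± 0.085 in the granulocyte-monocyte-marker class. Dtl, which helps to destroy Cdt1 once replication has begun, was at 49.4, 65.4, 43.5 and 48.0 CPM and at 125, 149, 132 and 133 CPM in the same 2 classes, so it rose together with the loader.

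The genes that act at the fork rose by less in the megakaryocyte-marker and lymphoid-marker classes than in the granulocyte-monocyte-marker class, as values side by side without a test between these classes. Prim1, the primase that lays down the first RNA bases, had log2 fold changes of 0.80 ± 0.073, 0.84 ± 0.068 and 1.35 ± 0.062 in that order. Pole, the main polymerase of the leading strand, had 0.50 ± 0.064, 0.66 ± 0.058 and 1.10 ± 0.053. Lig1, the ligase that joins the pieces of the lagging strand, had 0.77 ± 0.065, 0.77 ± 0.061 and 1.397 ± 0.056. Pcna, the sliding clamp that holds polymerases on DNA, was at 110, 114, 91.5 and 99.5 CPM in the HSC-marker class and at 260, 273, 248 and 235 CPM in the granulocyte-monocyte-marker class, with no overlap. Dscc1, part of a loader of that clamp, was a low gene in the HSC-marker class, at 6.82, 12.01, 13.7 and 9.48 CPM, and rose by 1.62 ± 0.091 in the granulocyte-monocyte-marker class.

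Checkpoint and repair genes followed. Chek1, a kinase of the replication checkpoint, was at 13.3, 17.5, 20.1 and 13.2 CPM in the HSC-marker class and at 45.0, 48.6, 43.3 and 38.3 CPM in the granulocyte-monocyte-marker class, with no overlap. Clspn, which links stalled forks to that kinase, was at 36.1, 37.98, 24.5 and 25.5 CPM and at 98.2, 110, 123 and 104 CPM. Brca1, a gene of DNA repair, rose by 1.60 ± 0.075 and Ung, which removes uracil from DNA, by 1.58 ± 0.094 on the log2 scale.

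Genes for the supply of DNA building blocks had some of the largest differences. Rrm2 encodes the small subunit of ribonucleotide reductase, which makes deoxyribonucleotides. It was at 14.3, 16.4, 10.6 and 8.5 CPM in the HSC-marker class and at 82.0, 77.7, 76.3 and 53.0 CPM in the granulocyte-monocyte-marker class. The log2 fold change was 2.51 ± 0.095 (edgeR, adjusted p = 7.3e-26), and 1.17 ± 0.13 in the megakaryocyte-marker and 2.23 ± 0.11 in the Nkg7 class. Tk1, thymidine kinase of the salvage route, was at 26.6, 23.6, 23.2 and 16.9 CPM in the HSC-marker class and at 88.3, 93.3, 84.7 and 76.7 CPM in the granulocyte-monocyte-marker class. Tyms, which makes thymidylate, was at 46.7, 52.4, 44.4 and 36.5 CPM and at 164, 182, 157 and 144 CPM. For Rrm2, Tk1 and Tyms alike, the groups did not overlap. In the lymphoid-marker class Tk1 was lower than in the granulocyte-monocyte-marker class in every tube, at 43.4, 42.6, 34.4 and 41.9 CPM. These 2 classes were not compared by a test.

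The regulators of entry into S phase were low in the HSC-marker class. Ccne1, which encodes cyclin E1, had 66 UMIs in all HSC-marker cells and was at 3.75, 2.05, 1.95 and 2.02 CPM, against 7.6, 10.8, 7.7 and 8.4 CPM in the granulocyte-monocyte-marker class. The log2 fold change was 2.02 ± 0.19 (edgeR, adjusted p = 1.5e-12), with the widest error of the genes named here. Ccne2, for cyclin E2, was at 10.2, 11.7, 6.69 and 6.53 CPM and at 25.0, 27.4, 24.0 and 22.0 CPM in these classes. E2f1, a transcription factor of many replication genes, was at 16.7, 17.1, 9.8 and 15.5 CPM in the HSC-marker class and at 47.0, 46.3, 42.3 and 42.1 CPM in the granulocyte-monocyte-marker class. Its log2 fold change there was 1.53 ± 0.094, and it was 1.61 ± 0.10 in the Nkg7 class.

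Among the genes for chromatin, the 2 subunits of chromatin assembly factor 1 given here, which places histones on new DNA, had unlike values. Chaf1a was at 26.2, 32.2, 19.2 and 27.0 CPM in the HSC-marker class and at 83.5, 86.2, 82.3 and 75.5 CPM in the granulocyte-monocyte-marker class, and these groups did not overlap. Chaf1b was at 47.4, 53.3, 43.5 and 52.5 CPM and at 56.7, 57.4, 42.3 and 54.1 CPM, with overlap. Its log2 fold change in the granulocyte-monocyte-marker class was 0.10 ± 0.065 and did not pass edgeR's test (adjusted p = 0.16). Chaf1b was higher in the other 3 comparisons, by 0.36 ± 0.070 in the Nkg7 class (edgeR, adjusted p = 2.2e-05), 0.28 ± 0.057 in cells of no list (adjusted p = 4.7e-05) and 0.27 ± 0.071 in the megakaryocyte-marker class (adjusted p = 0.0021). In the lymphoid-marker class Chaf1b was at 47.2, 45.5, 45.0 and 44.1 CPM, with a fold change of -0.17 ± 0.070 on the log2 scale (adjusted p = 0.039 by edgeR). This call was lost with either chemistry alone, and when the negative tube of mouse 1 or of mouse 2 was left out. Chaf1b also had the lowest correlation per cell with the sum of the other 34 genes, a Pearson r of 0.14 over the GEM-X cells, where the highest, for Pola1, was 0.60. Cells of 1 library share its depth and preparation, and these values describe the cells only.

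Slbp, whose protein binds the stem-loop of histone mRNAs, had the smallest increase in the granulocyte-monocyte-marker class after Chaf1b. It went from 85.5, 83.9, 69.7 and 74.1 CPM to 148, 165, 148 and 151 CPM, by 0.98 ± 0.048 on the log2 scale. Hells, a chromatin remodeller, went from 62.4, 65.1, 46.0 and 48.1 CPM to 166, 184, 157 and 156 CPM. Uhrf1, which keeps DNA methylation on newly made strands, went from 35.4, 39.2, 32.1 and 32.0 CPM to 107, 119, 102 and 107 CPM, by 1.65 ± 0.059. Of the lists that were not chosen for these genes, all 26 G2/M genes were higher in each of the 5 classes than in the HSC-marker class, and 47 or 48 of 50 other replication genes. Mki67, a gene of all cycling cells, was at 155, 219, 190 and 119 CPM in the HSC-marker class and at 653, 558, 615 and 587 CPM in the granulocyte-monocyte-marker class. For 11 cell cycle inhibitors, the share of lower genes over all genes is not given here, so their counts cannot be read as particular to them. In the granulocyte-monocyte-marker class 3 of them were higher, where 36.2% of all genes tested were, and 6 were lower. The lower ones included Cdkn1c, an inhibitor of cyclin-dependent kinases known from quiescent HSCs, at 22.2, 26.1, 27.9 and 24.9 CPM in the HSC-marker class and 3.06, 3.02, 2.00 and 2.92 CPM in the granulocyte-monocyte-marker class. Cdkn1a, another inhibitor, moved the other way, from 7.84, 5.59, 2.51 and 3.42 CPM to 22.4, 21.1, 18.7 and 17.0 CPM.

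The 35 genes differed in how their RNA level went with that of G2/M genes. The 2969 cells with at least 29 G2/M UMIs per 4000 were set beside the 7467 cells with none, as log2 ratios of CPM per tube (mean ± SD, 4 tubes, no test). Whether cells with none were cycling was not measured, and marker classes were not matched. At least 10 G2/M UMIs were held by 39.4% of granulocyte-monocyte-marker and 6.17% of HSC-marker cells (means of 4 tubes). Rrm2 was at 43.5, 49.7, 49.5 and 56.7 CPM in G2/M-rich cells and at 3.37, 4.00, 3.38 and 3.26 CPM in cells without G2/M UMIs, a ratio of 3.83 ± 0.22. Tk1 (3.76 ± 0.030), Clspn (3.44 ± 0.32), Mcm10 (3.30 ± 0.20) and Brca1 (3.26 ± 0.30) were also high. Mcm2 to Mcm7 had smaller ratios. Mcm2 was at -0.23 ± 0.29, Mcm6 at -0.18 ± 0.28, Mcm4 at 0.17 ± 0.23 and Mcm3 at 0.31 ± 0.26, with tubes on both sides of 0. Mcm7 (0.46 ± 0.14) and Mcm5 (0.63 ± 0.26) were higher in all 4 tubes.

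Ung, E2f1 and Chaf1b were lower in the G2/M-rich cells. Ung was at 0.42, 1.34, 1.31 and 1.84 CPM in them and at 21.1, 19.4, 16.0 and 17.4 CPM in cells without G2/M UMIs, a log2 ratio of -4.09 ± 1.07. In 5379 replication-high cells with under 5 G2/M UMIs, a group set after the data were seen and defined in part by the 35 genes, Ung was at 83.4 ± 2.40 CPM and Mcm2 at 130 ± 2.06 CPM. Mcm2 had a mean of 36.7 ± 2.30 CPM in the G2/M-rich cells. Rrm2 was higher in the G2/M-rich cells (49.9 ± 5.40 CPM) than in that group (25.4 ± 5.79 CPM), as were Rrm1, Tk1, Clspn, Brca1, Mcm10 and Tyms. In cells with at least 42 G2/M UMIs, Tyms was no longer higher (105.8 against 107.6 CPM, a log2 ratio of -0.025 ± 0.019), and Rrm2 was at 0.52 ± 0.59 on the log2 scale against that group. Cdc45 was at 32.3 ± 2.02 CPM in cells with at least 29 G2/M UMIs and at 32.0 ± 1.71 CPM in the replication-high group.

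**Figure D4:**
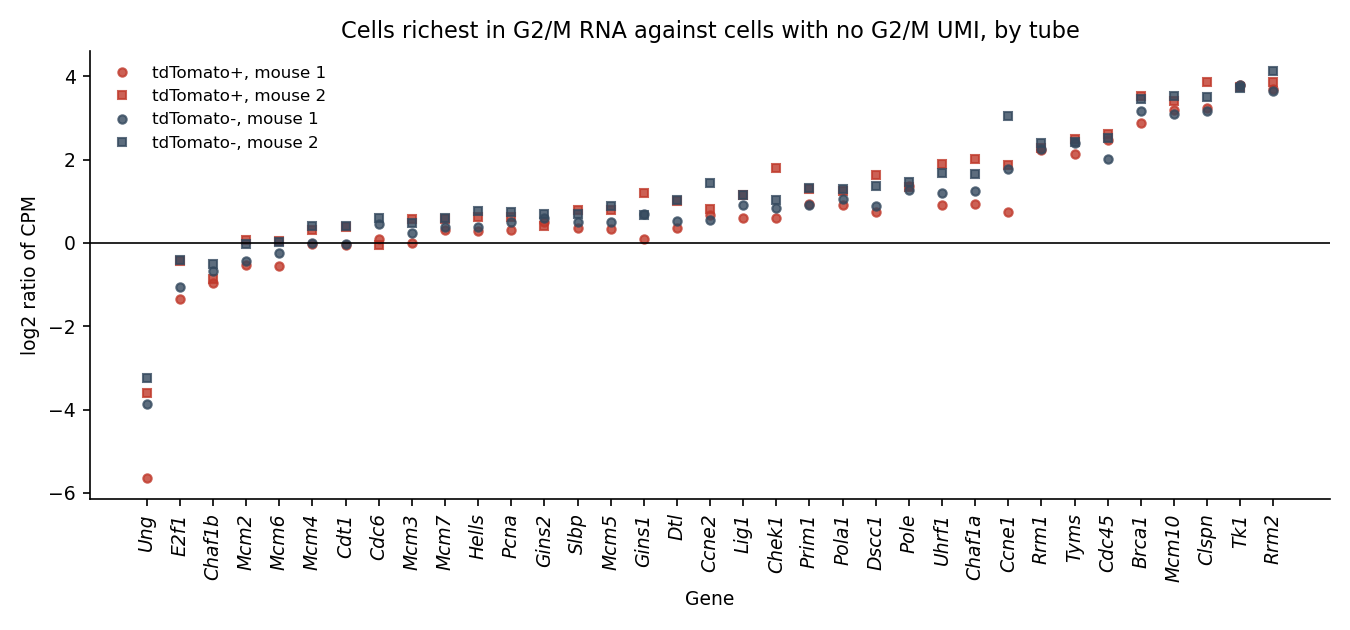
log2 ratio of CPM between cells with at least 29 G2/M UMIs and cells with none (vertical axis) for each of the 35 genes, 1 point per tube. Ung lies far below 0 in all 4 tubes, Mcm2, Mcm6, Mcm4 and Cdt1 lie around 0, and Brca1, Mcm10, Clspn, Tk1 and Rrm2 have mean ratios above 3.

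The comparison of the gates asked whether cells with a history of Tppp3 activity differed from the rest. Over all cells, none of the 35 genes passed edgeR's quasi-likelihood test with the mouse as a block, where 0.796% of 16586 genes did. The count at an unadjusted p under 0.05 was 1 of 35 by edgeR, where 6.52% of all genes were under it, and 0 by DESeq2, which called none either. The median log2 fold change was 0.01. Mcm2, for example, was at 70.1 and 71.3 CPM in the positive and negative tube of mouse 1 and at 65.0 and 64.4 CPM in mouse 2, and the gates overlapped. Pcna was at 203 and 202 CPM and at 189 and 189 CPM. Ccne1 had the lowest unadjusted p, with 7.3 and 7.1 CPM in mouse 1 and 6.3 and 9.3 CPM in mouse 2, so that the direction differed between the mice. Of the 26 G2/M genes, 2 passed, Ube2c (log2 fold change 0.15 ± 0.032, edgeR adjusted p = 0.0083) and Cenpf (0.12 ± 0.031, adjusted p = 0.033). All 26 had higher estimates in positive cells, and 21 had an unadjusted p under 0.05 by edgeR, where 6.52% of all genes did. The test of a gate difference between the chemistries called none of the 35 genes, where 0.0441% of all genes passed. By unadjusted p, 2 of the 35 were under 0.05 by edgeR, as were 4.21% of all genes, and 0 by DESeq2.

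Within the marker classes, the gates differed in the 35 genes past the test in the megakaryocyte-marker class alone, and there weakly; whether the gate difference differs between classes was not tested. In that class 3 genes were higher in tdTomato-positive cells, where 0.524% of 11835 genes were higher, and none was lower, where 0.161% were. Mcm6 was at 225 CPM in the positive and 187 CPM in the negative tube of mouse 1, and at 221 and 186 CPM in mouse 2 (0.26 ± 0.064 on the log2 scale, with the SE from the fit over 2 mice; adjusted p = 0.023 by edgeR). Tyms was at 111 and 89.3 CPM in mouse 1 and at 114 and 92.0 CPM in mouse 2 (0.31 ± 0.083, edgeR, adjusted p = 0.042). Pola1, the catalytic subunit of the polymerase that starts new strands, was at 292 and 254 CPM and at 276 and 234 CPM (0.22 ± 0.059, edgeR, adjusted p = 0.045). For all 3 genes both positive tubes were above both negative tubes. Of the 35 genes, 24 were higher in the positive tube in both mice and 1 was lower in both. This count was not taken over all genes, and the 35 genes do not vary independently. In classes without a call it was 4 and 14 in the HSC-marker, 3 and 10 in the granulocyte-monocyte-marker and 8 and 6 in the lymphoid-marker class. It was 7 and 7 in the Nkg7 class and 15 and 0 in cells of no list. Cdc45 had a larger difference (0.55 ± 0.17) that did not pass (edgeR, adjusted p = 0.14).

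In the same class 6 of the 26 G2/M genes were higher in positive cells, among them Mki67 (0.40 ± 0.050) and Top2a (0.30 ± 0.051). Of the same list, 5 were higher in the granulocyte-monocyte-marker, 4 in the lymphoid-marker and 2 in the Nkg7 class, 0 in cells of no list, and 1 was lower in the HSC-marker class. Replication-high cells made up 35.6% and 34.2% of the positive and negative tube of mouse 1 and 33.2% and 28.7% in mouse 2, so the positive tube was higher in each mouse and the gates overlapped. Median depths were 8860.5 and 9137.5 UMIs in mouse 1 and 7902 and 7874 UMIs in mouse 2. The calls of the 3 genes rest on 1 residual degree of freedom per gene, with the spread pooled over genes. None of the 35 genes passed in this class with DESeq2 (2 at an unadjusted p under 0.05), without the low-count filter, without the mouse as a block, without any 1 of the 4 tubes or with v3.1 counts alone. With v3.1 alone the log2 fold changes were 0.38 for Mcm6, 0.067 for Pola1 and 0.027 for Tyms. With GEM-X alone Tyms (0.45), Pola1 (0.26) and Prim1 (0.41) passed, and Mcm6 (0.20) did not.

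In the other classes edgeR called 0 of the 35 genes between the gates. Of all genes, 0.0388% passed in the HSC-marker, 0.673% in the granulocyte-monocyte-marker, 0.0997% in the lymphoid-marker and 0.21% in the Nkg7 class, and 0.0415% in cells of no list. At an unadjusted p under 0.05 edgeR had 9, 4, 0, 1 and 6 of the 35 genes in these classes, in that order, where 4.80%, 8.94%, 4.75%, 6.25% and 4.96% of all genes were under it. DESeq2 had 0 in each and called none. In the HSC-marker class all 6 subunits of the helicase ring had lower estimates in positive cells, from -0.30 to -0.05 on the log2 scale, with a smallest adjusted p of 0.91 for the 6. Of the 35 genes, 13 had higher estimates in positive cells, and the median was -0.06. The higher ones included Tk1 (0.31 ± 0.15) and Brca1 (0.31 ± 0.14), both at an unadjusted p under 0.05 by edgeR. Mcm2 was at 33.4 against 39.7 CPM in mouse 1 and at 25.4 against 32.5 CPM in mouse 2, and the gates overlapped. Mcm6 was at 117 against 127 CPM in mouse 1 and at 118 against 117 CPM in mouse 2. The negative tube of mouse 1 was flagged as lying apart for Mcm4, Mcm5 and Mcm6 in this class. Taken by mouse, the median gate difference over the 35 genes was -0.17 in mouse 1 and 0.0025 in mouse 2 on the log2 scale.

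The chemistries were compared because the study also set GEM-X beside the older v3.1 kit. Between them 23 of the 35 genes were higher with GEM-X, where 37.0% of 15862 genes were higher, and 8 were lower, where 36.2% were (edgeR's quasi-likelihood test on 8 sums with the tube as a block, Benjamini-Hochberg adjustment). All sums of a chemistry came from the same library. The p-values and SEs of this comparison therefore rest on the spread between tubes and do not include spread between libraries. Whether the calls would hold in further libraries was not tested. The median log2 fold change was 0.17 over the 35 genes and -0.01 over all genes. Every GEM-X value was above every v3.1 value for 20 genes and below for 6. The same count was not taken over all genes, so it cannot be read as particular to these genes. At an unadjusted p under 0.05 by edgeR, 74.8% of all genes differed between the chemistries. Cell Ranger versions also differed between the libraries, and their part was not tested.

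Subunits of 1 complex did not shift together. Within the helicase ring, Mcm4 was at 139, 144, 137 and 137 CPM with GEM-X and at 82.5, 85.3, 78.2 and 77.7 CPM with v3.1 (positive and negative tube of mouse 1, then of mouse 2). This was a log2 fold change of 0.78 ± 0.017. Mcm2 was at 68.8, 70.9, 65.8 and 65.3 CPM and at 72.2, 72.3, 64.0 and 63.3 CPM, a log2 fold change of -0.00 ± 0.026 that did not pass edgeR's test (adjusted p = 0.98). The others were 0.67 for Mcm6, 0.23 for Mcm7, 0.17 for Mcm3 and -0.08 for Mcm5, all past the test. The 2 subunits of ribonucleotide reductase went opposite ways. Rrm1, the large subunit, was at 182, 179, 167 and 170 CPM with GEM-X and at 88.3, 89.7, 75.002 and 78.8 CPM with v3.1 (1.06 ± 0.020), and Rrm2 had a log2 fold change of -0.23 ± 0.035.

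Of the other genes, Mcm10 (0.85 ± 0.040), Uhrf1 (0.67 ± 0.021) and Ccne2 (0.65 ± 0.044) had the largest increases with GEM-X. Slbp had the largest decrease, at 108, 111, 111 and 107 CPM with GEM-X and at 159, 161, 160 and 156 CPM with v3.1, with no overlap (-0.54 ± 0.015). E2f1 (-0.42 ± 0.037), Ung (-0.40 ± 0.035) and Tk1 (-0.36 ± 0.029) were lower as well. Across the 35 genes the fold change had a Spearman correlation of 0.47 with total intron length and with the span of the gene, and of 0.31 with exon length. Over 15856 genes the values were 0.13, 0.17 and 0.38. These are correlations across genes, which are not independent replicates, for the 3 length measures examined, and no p is given. The share of replication-high cells was 38.7% with GEM-X (median depth 9423 UMIs) and 34.8% with v3.1 (7852 UMIs) over all thinned cells, and in the granulocyte-monocyte-marker class it was higher with GEM-X in each of the 4 tubes.

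**Figure D5:**
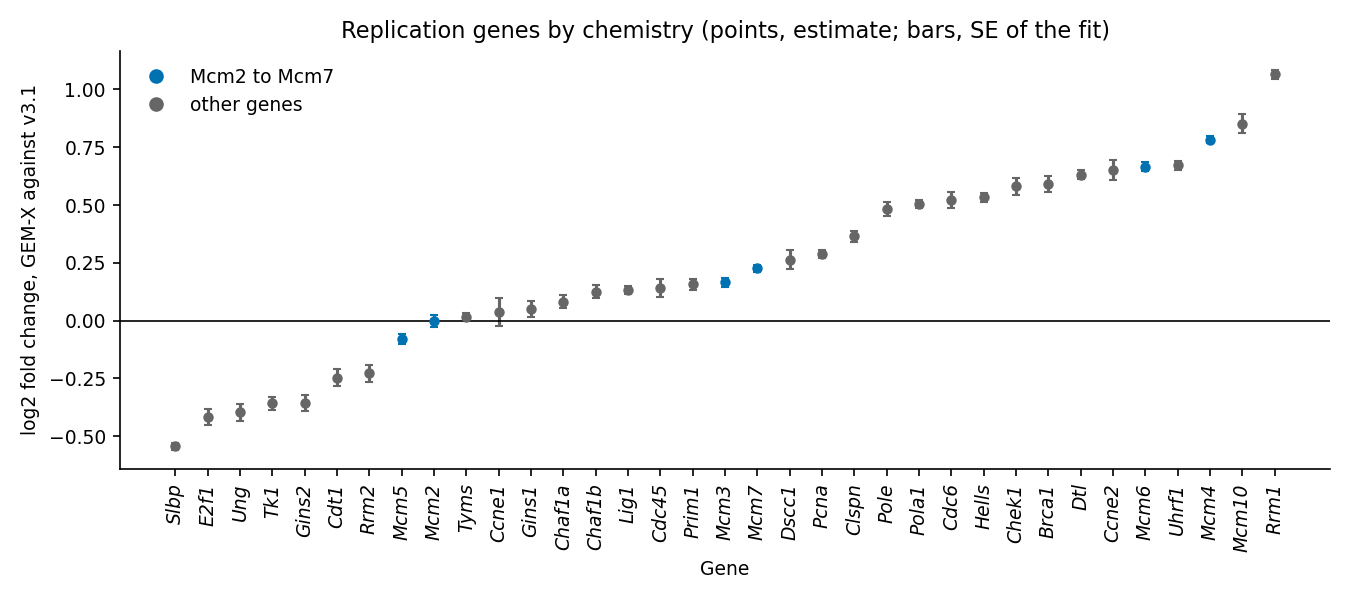
log2 fold change between GEM-X and v3.1 (vertical axis) for each of the 35 genes in order of its value, with bars for the SE of the fit; the 6 subunits of the helicase ring are blue. The SE rests on the spread between tubes and does not include spread between libraries. Slbp is lowest at -0.54, Rrm1 highest at 1.06, and the subunits spread from -0.08 to 0.78.

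Several of the genes overlap another gene on the opposite strand in the GENCODE M21 annotation (mm10): Mcm7 (Cops6 and Ap4m1), Gins2 (Gse1), Cdc45 (Ufd1), Ccne2 (Ints8), Chaf1a (Ubxn6), Lig1 (Zswim9) and Tk1 (Afmid). The sources used here do not say whether the counting used strand, and whether reads of these pairs were told apart was not tested. Some genes also overlap another gene on the same strand, among them Chaf1b (Gm49617), Rrm1 (Gm45399), Cdt1 (Gm20388) and Pole (Gm26277 and Gm15791). The part of such overlaps in the counts was not tested. The genes named most often above lie at chr12:24708241-24714146 (Rrm2, ENSMUSG00000020649), chr6:88883474-88898780 (Mcm2, ENSMUSG00000002870), chr1:128331590-128359664 (Mcm6, ENSMUSG00000026355), chr16:93883901-93906115 (Chaf1b, ENSMUSG00000022945) and chr5:114130386-114139323 (Ung, ENSMUSG00000029591).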

How the data were processed

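The 35 genes and the marker and pathway lists were chosen with earlier results of these data known. The deposited matrices held raw UMI counts per gene and cell barcode, made with Cell Ranger 8.0.1 and 7.1.0 per the file headers, whereas the submitters' processing notes name version 7.0.0 and mm10. Which matrix belongs to which chemistry was inferred from matrix names and Cell Ranger versions, since the labels do not state it. The labels give the sort both as 1 positive and 1 negative tube over both mice and as 4 tubes; a deposited key that pairs each hashtag with a mouse and gate was used. Cells were kept from 1000 genes upward, with mitochondrial UMIs up to 10%, and needed exactly 1 hashtag called by a 2-component Gaussian mixture (scikit-learn 1.9.0). Cells with several hashtags (2091 and 2364) or none (63 and 13) were left out, and doublets within a tube remain.

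Counts were summed per tube, class or chemistry and tested over all genes with edgeR 4.0.16 (R 4.3.3; TMM, filterByExpr, quasi-likelihood test, dispersion at least 1e-04, adjusted p under 0.05). CPM use TMM-scaled totals. An SE was taken as the size of the log2 value over the root of the F statistic. DESeq2 1.42.0 was an alternative. The fits were checked on simulated counts drawn with the spread that the fit had estimated. Of changes of 0.25 on the log2 scale, 62.7% were recovered by the gate fit over all cells. The chemistry fit recovered 70.1% and the class fit 65.7%. The gate fits within a class were not simulated, so this check does not cover their calls. Positive and negative tubes with 1 mouse number are 1 animal, and the difference between mice in positive tubes correlated with that in negative tubes across 16586 genes (Pearson 0.72, Spearman 0.67; genes are not independent replicates). All 35 genes could be named: those past the test, or the 6 largest and 3 smallest changes where more than 12 passed, with Mcm2 to Mcm7 always; others were named as examples of their role after their values were seen. Classes with under 50 cells in a tube were not tested.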

Additional observations from a re-analysis of the deposited data

Results flagged for a closer look

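In 13 of 144 sets of 4 tubes, 1 tube lay farther from the rest than Dixon's test allows; chance gives about 1 in 20. In the HSC-marker class these were the positive tube of mouse 1 for Ccne1 (3.749 CPM) and the negative tube of mouse 1 for Mcm4 (74.2 CPM), Mcm5 (39.47 CPM) and Mcm6 (126.5 CPM). In the Nkg7 class they were Ccne1 in the negative tube of mouse 1 (6.025 CPM) and Slbp in the positive tube of mouse 2 (180.5 CPM). In the lymphoid-marker class they were Chaf1a (71.75 CPM), Mcm10 (37.79 CPM), Slbp (110.1 CPM) and Tk1 (34.44 CPM). The remaining ones were Mcm10 in cells of no list (32.91 CPM), Pole in the granulocyte-monocyte-marker class (85.65 CPM) and Slbp in the megakaryocyte-marker class (117.5 CPM). The tubes come from 2 mice.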

How the results depend on the processing

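No gene that passed a test in the report changed direction under an alternative. The median over the 35 genes between the gates took both signs, from -0.047 to 0.068 over all cells and from -0.21 to 0.072 in the HSC-marker class. In the megakaryocyte-marker class the count of genes higher in tdTomato-positive cells went from 3 to 0 with DESeq2, without the low-count filter, with no replicate block and with v3.1 counts alone, was 0 to 0 without each tube in turn (fits without the block), and was 1 with lists reached by at most 10% of cells; with GEM-X counts alone it was 3, of which 2 were among the 3 reported. The cause was not tested. With the negative tube of mouse 2 left out, 1 gene was lower in the HSC-marker class between the gates (0 to 1 over the tubes left out), and with v3.1 alone 1 was higher in the granulocyte-monocyte-marker class. The 1 gene lower in the lymphoid-marker than in the HSC-marker class, Chaf1b, became 0 with no replicate block and with either chemistry alone, and 0 to 1 without each tube in turn; the paired fit changed no other count by over 1.5 times. With lists reached by at most 10% of cells the median log2 fold change against the HSC-marker class rose to 2.00 in the granulocyte-monocyte-marker and 1.31 in the megakaryocyte-marker class.

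With a limit of 5 UMIs the share of replication-high cells was 29.57% in the HSC-marker, 54.69% in the megakaryocyte-marker, 77.25% in the granulocyte-monocyte-marker, 53.47% in the lymphoid-marker and 68.36% in the Nkg7 class and 59.34% in cells of no list; with 20 it was 6.20%, 15.97%, 27.51%, 15.37%, 29.36% and 21.15%. Cells thinned to 2000 UMIs gave 52.54% in the Nkg7 class. In cells with at least 42 G2/M UMIs the log2 ratio was 3.349 for Rrm2 and -0.7452 for Mcm2. The number of animals, 2, limits every comparison of the gates, and depth limits Ccne1 most.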
